A study of Mus musculus with 3 samples.

Results

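Chemokines and their receptors were followed on 3 Agilent arrays of mouse embryonic fibroblasts (MEF), fibroblasts grown from minced embryos of the C57BL/6 strain. A probe was a member if its gene name was Ccl, Cxcl, Ccr or Cxcr with a number and, where present, a final letter, which gave 52 of the 35527 gene names of the array, with 64 of its 55681 gene probes. The arrays held MEF without BP (control), MEF with 10 µg/ml BP (BP10) and MEF with 40 µg/ml BP (BP40). BP is n-butylidenephthalide, a compound of Angelica sinensis, a plant of Chinese medicine. All 3 cultures were kept in DMEM with heat-inactivated serum, antibiotics, non-essential amino acids and L-glutamine. The labels record no treatment for the control, whereas the study describes the control of the arrays as MEF with DMSO, the solvent of BP. No label gives the time in BP, and no transgene was carried. MEF are a mixed primary culture, so an array reads an average over its cells.

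Each condition had 1 array, so there was no replicate spread, no p-value and no test, and a ratio compares 2 arrays. The family was picked with results for Ccl11 and other genes of these arrays known, and the values are descriptions. All arrays were on 1 slide. Since the scan of the control was a session of its own and BP10 and BP40 shared another, the effect of BP against the control and that of the session cannot be told apart. Values below are log2 of the background-corrected intensity minus the 75th percentile of that array, called the normalized log2 signal, and a log2 ratio is the difference of 2 such values. A probe was called down-regulated or up-regulated at a log2 ratio of -1 or 1 and beyond, which is 2-fold, if at least 1 of the arrays compared had it well above background. Where the other array was dim, the dim value was replaced by the lowest well-above-background value of that array, unless the probe itself read higher, and the ratio is written as a bound. Levels of different probes are not compared, since probes differ in brightness for equal RNA.

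Chemokines are small secreted proteins that guide leukocytes along concentration gradients. They are named CC or CXC after the spacing of conserved cysteines. Ligands bind seven-transmembrane receptors coupled to inhibitory G proteins, named Ccr or Cxcr after the class of ligand, and many ligands share a receptor. Fibroblasts are a known source of several ligands, among them the monocyte attractants Ccl2 and Ccl7, the neutrophil attractants Cxcl1 and Cxcl5, the stem cell niche factor Cxcl12 and the eosinophil attractant Ccl11 (eotaxin). Most receptors of the family are carried by leukocytes.

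The culture was checked against marker lists first. All 12 fibroblast markers on the list were well above background on the 3 arrays, with a summed level (log2 of the summed normalized signal) of 10.4 on the control, 9.92 on BP10 and 10.1 on BP40. Such a sum is set mostly by the brightest probes of its list and is not an amount of cells. Lumican (Lum), a matrix proteoglycan, was down-regulated at BP10 (-3.19) and BP40 (-2.21), as were decorin (Dcn, -1.05) at BP10 and Col3a1 (-1.22) at BP40. All 13 macrophage markers were also well above background on every array, with a summed level of 5.38, 5.14 and 5.30. The brightest of them, Itgam, alone read 4.52, 4.08 and 4.10. Of these 13, Lyz2 was called, higher at BP10 (1.10) and at BP40 (1.26). The T, B and NK cell list had 5 of 9 genes above background on all arrays and a summed level of 3.27, 2.77 and 2.93, with Cd3e lower at BP10 (-1.10). The granulocyte and mast cell list had 2 of 8 genes above background on all arrays and a summed level of 1.95, 1.26 and 1.66. Elane, the brightest gene of that list, alone read 1.86, 1.16 and 1.51. In the same list Prg2 was dim on both BP arrays, with bounds of -1.26 and -1.25. Cpa3 was above background on BP40 alone, with a bound of 3.01 against the control. For the endothelial list, 6 of 8 genes were above background on all arrays, and the summed levels were 3.91, 3.59 and 3.83. Of these genes Kdr read 3.01, 2.66 and 3.05, Flt1 read 2.72, 2.38 and 2.47, and Emcn was lower at BP40 (-1.08). For the epithelial list, 5 of 7 genes were above background on all arrays, with summed levels of 1.61, 1.60 and 1.07. Cldn4 was lower at BP10 (-1.44) and Krt5 at BP40 (-1.04). The part of these cells in the chemokine values was not tested, and fewer cells of a type cannot be told apart from less RNA per cell in such bulk RNA.

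Several sequences show what the probes read. A probe is 60 bases long, and 30 bases of each are printed. The Ccl11 probe (chr11:81876072-81876131, build mm9) is shown because the lowest measured ratios of the family rest on it.

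Ccl11 probe: acacatatatgaaaatgtctattgttttgc

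One lincRNA probe shared a run of 15 or more bases with it. That probe read -2.70 on the control, -3.50 on BP10 and -3.08 on BP40 in normalized log2 signal. Ccl21a and Ccl21b, near-identical copies of a ligand of Ccr7, have probes that overlap by 56 bases with 2 mismatches. The capital marks 1 of these mismatches.

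Ccl21a probe: atacctaactgaataaaaaGgtgatccagc

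Ccl21b probe: atacctaactgaataaaaaAgtgatccagc

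Cxcl11, a ligand of Cxcr3, had 2 probes whose bases are shared with probes of other genes. Capitals mark bases in runs of 15 or more found in such other probes.

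Cxcl11 probe A_55_P2044413: CAGCACTTGAaAGGCAGAGGCAGGAGGATC

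Cxcl11 probe A_55_P2160387: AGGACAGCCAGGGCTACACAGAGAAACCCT

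The Cxcl11 probe A_55_P2160387 shared such runs with 14 other probes of the array, and A_55_P2044413 with 2. Their signal is therefore uncertain as a measure of Cxcl11. The probes of Ccl20, Ccl9, Ccl21a, Cxcr7 and Ccl25 (A_51_P161265) also shared such runs with 2 probes of other genes each. The same limit holds for them. Further members shared such runs with 1 other gene, among them Ccl17, Ccl27a, Ccr10, Ccr4 and Ccr2.

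Of the 64 member probes, 40 were well above background on all 3 arrays, 17 on 1 or 2 arrays and 7 on none. By array, 53 member probes were above background on the control (82.8%), 43 on BP10 (67.2%) and 46 on BP40 (71.9%). Of all gene probes it was 80.9%, 67.0% and 68.1%. The 7 probes dim on every array were those of Ccl1, Ccl22, Cxcl2, Cxcl13, Cxcl15, Ccr1 and 1 of the 2 probes of Ccr9. No member spot was saturated.

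**Figure D1:**
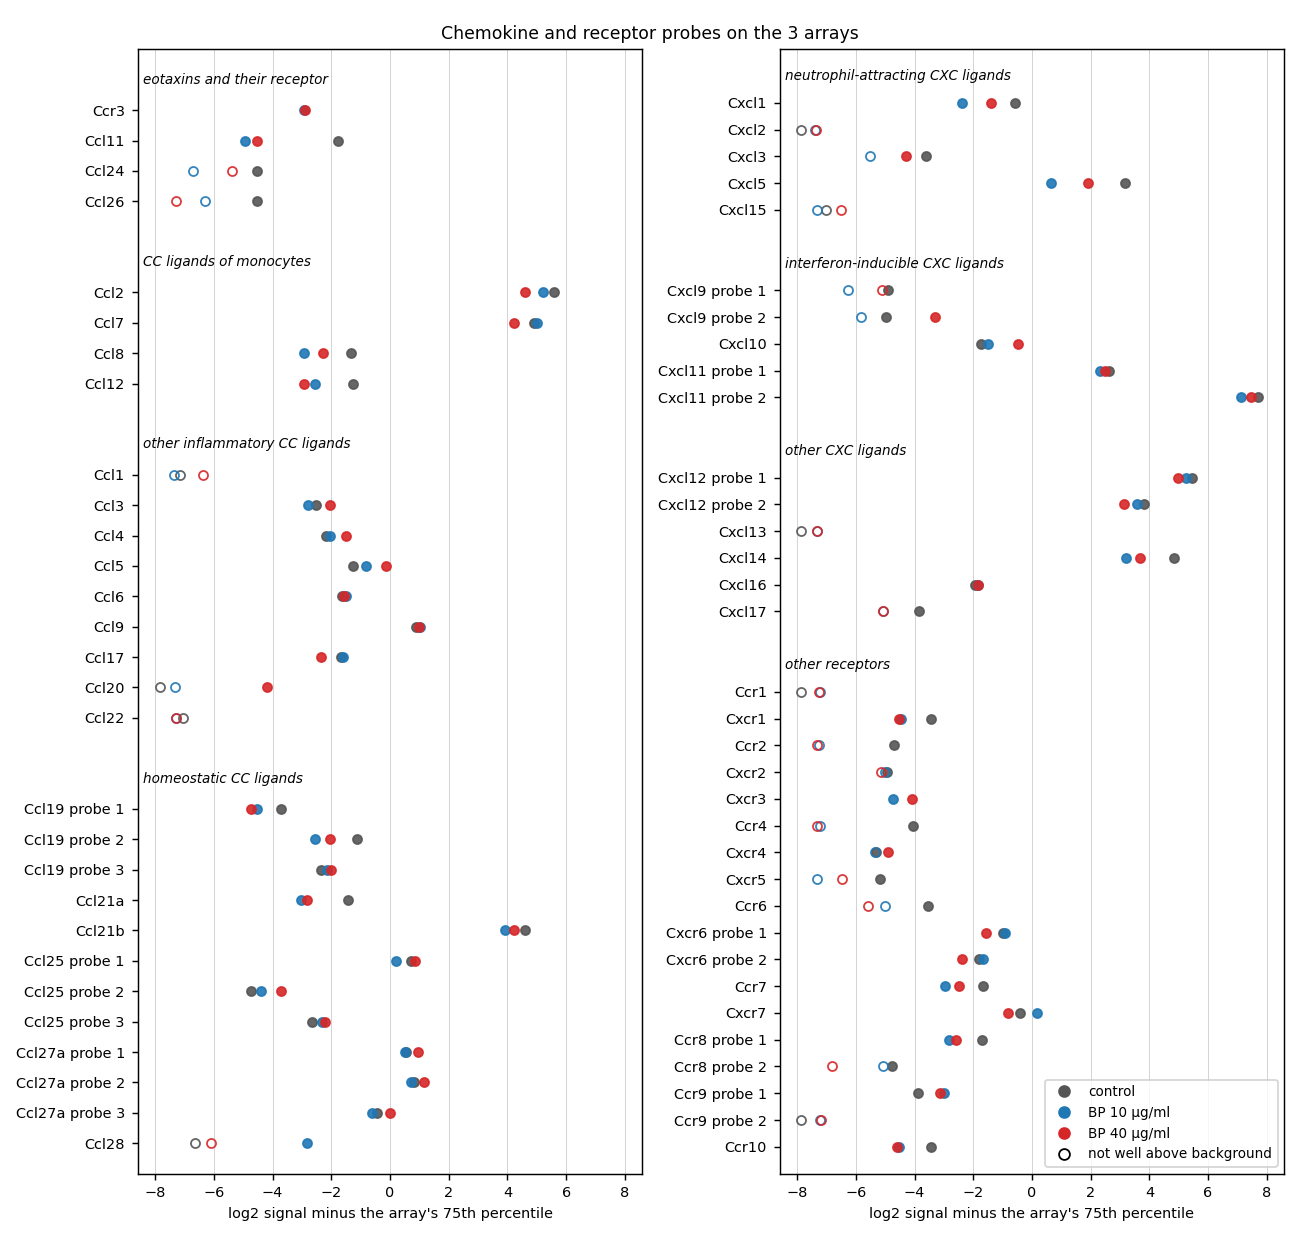
Normalized log2 signal (log2 signal minus the 75th percentile of the array) of the member probes reported here on the control, BP10 and BP40 arrays, grouped by role, with 1 point per array and open points where the probe was not well above background. The Ccl11 point of the control (-1.78) lies to the right of both BP points (-4.93 and -4.53), and the Cxcl5 points lie in the order BP10, BP40, control.

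Among member probes well above background on both arrays compared, Ccl11 had the lowest log2 ratio to the control at BP10 and at BP40. Members dim on a BP array, such as Ccr4, have only a bound and cannot be ranked beside it. It attracts eosinophils through Ccr3 and is induced in fibroblasts by the cytokines Il4 and Il13. Its intensity was 507 ± 51.2 on the control, 45.8 ± 9.81 on BP10 and 52.7 ± 9.02 on BP40, where the error is the scanner software's error for 1 spot. The lowest intensity well above background was 41.9 on BP10 and 36.6 on BP40, so both BP values lay close to the detection limit while the control did not. In normalized log2 signal Ccl11 was -1.78, -4.93 and -4.53. The log2 ratio was -3.15 for BP10 (8.89-fold lower than the control) and -2.74 for BP40 (6.69-fold lower). Between the BP arrays it was 0.41, short of the threshold.

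Among the 36650 probes well above background on both arrays, the ratio of Ccl11 at BP10 ranked 4 from the lowest, and at BP40 it ranked 10 of 37296. Of the 2741 measured probes of like brightness, 2, this one included, had a ratio as low at BP10, and 3 of 2732 at BP40. The median ratio of these probes of like brightness was -0.42 and -0.40. The size of the Ccl11 ratio depended on the background correction: with normexp on the raw intensity it was -1.92 at BP10 and -1.57 at BP40, still past the threshold.

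The other eotaxins and the receptor gave less. Ccl24 was above background on the control alone (-4.52), with bounds of -0.55 and -0.54 against BP10 and BP40. Ccl26 was likewise above background on the control alone (-4.54), with bounds of -0.52 and -0.51. The Ccr3 probe read -2.93 on BP10 and -2.88 on BP40, a log2 ratio of 0.05. Its control spot was marked as non-uniform by the scanner software, with a mean pixel of 25445 and a median pixel of 12060, and was left out, so Ccr3 has no ratio to the control.

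**Figure D2:**
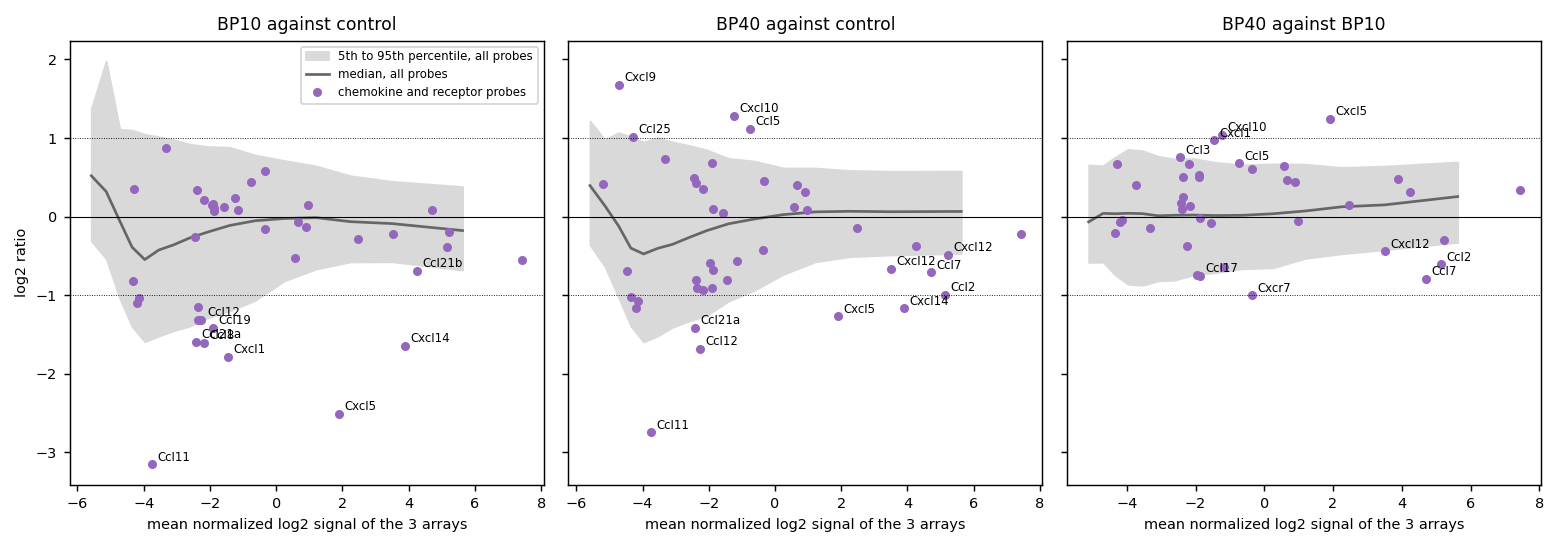
Log2 ratio (vertical axis) against mean normalized log2 signal of the 3 arrays (horizontal axis) for member probes well above background on both arrays compared, over the median and the band from percentile 5 to percentile 95 of all such probes in classes of brightness, with names given to members outside that band. Dotted lines mark 2-fold, and Ccl11 lies at -3.15 and -2.74, below the band of probes of like brightness in both comparisons with the control.

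The CC ligands of monocytes act mainly through Ccr2 and, for Ccl8, other receptors. The Ccl2 probe was printed 10 times on each array, and its spots give the measurement error. On the control, 9 spots remained after 1 outlier was left out, and they read 5.60 ± 0.131 (SD of spots, not of cultures), from 5.31 to 5.72 in normalized log2 signal. On BP10 the 10 spots read 5.21 ± 0.100, and on BP40 they read 4.61 ± 0.0758 with a highest spot of 4.77. The spot ranges did not overlap between the control and BP40 or between BP10 and BP40, and the lowest control spot and the highest BP10 spot both rounded to 5.31. How often ranges were apart among the 399 gene probes printed 10 times was not counted, so this describes Ccl2 without a baseline. The log2 ratio of Ccl2 was -0.39 at BP10 and -0.996 at BP40, the latter just short of the call, which it passed under 4 of the 5 other scalings and corrections (-1.06 to -1.02). Between the BP arrays it was -0.60.

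**Figure D3:**
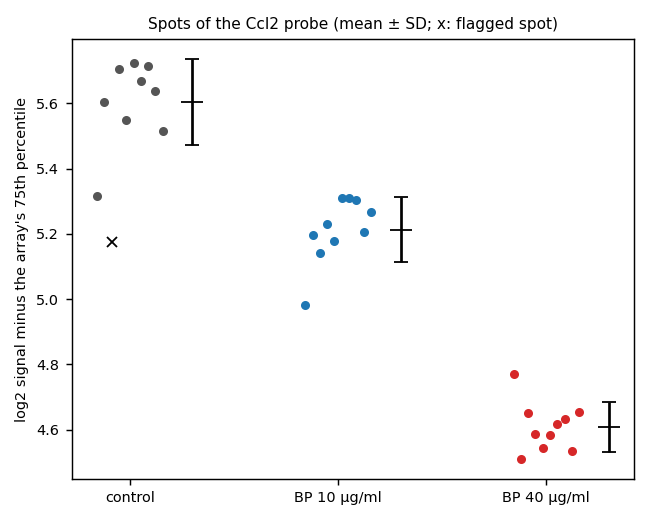
Normalized log2 signal of each of the 10 spots of the Ccl2 probe on the control, BP10 and BP40 arrays, with the mean and SD of the spots beside them and the outlier spot, which was left out, as a cross. Means were 5.60, 5.21 and 4.61, and the spread is that of spots on 1 array, not of cultures.

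Ccl7 lies next to Ccl2 and shares its receptor. It read 4.92 on the control, 5.00 on BP10 and 4.21 on BP40, with log2 ratios of 0.09 and -0.71. The BP40 array was thus the low one for Ccl7, and its ratio to BP10 was -0.79. Ccl12, the other mouse counterpart of the human CCL2 gene, read -1.26, -2.57 and -2.94. It was down-regulated at BP10 (-1.31) and at BP40 (-1.68). Ccl8 read -1.33, -2.93 and -2.27, and was down-regulated at BP10 (-1.60) and short of the call at BP40 (-0.94).

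None of the 9 probes of the inflammatory CC ligands of T cells and macrophages was down-regulated. Of all gene probes, 9.67% were down-regulated at BP10 and 8.51% at BP40, so 9 probes are too few to set this group apart. The probes of Ccl1, Ccl22 and Ccl20 were dim on the control and could not be called lower against it. Ccl5, an attractant of T cells, read -1.26 on the control, -0.83 on BP10 and -0.15 on BP40. It was up-regulated at BP40 (1.12, 2.17-fold) and not called at BP10 (0.44). With the normexp correction the BP40 ratio of Ccl5 was 0.97. Ccl3 and Ccl4, made by macrophages among other cells, had log2 ratios of -0.26 and 0.16 at BP10 and of 0.50 and 0.68 at BP40. Ccl6 (0.13 and 0.05) and Ccl9 (0.14 and 0.09), products of myeloid cells, were near 0 in both comparisons. Ccl17, a ligand of Ccr4 that Il4 induces, was at 0.08 and -0.68. Ccl20, the ligand of Ccr6, was above background on BP40 alone (-4.20), with a bound of 1.33 against the control and 0.87 against BP10.

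**Figure D4:**
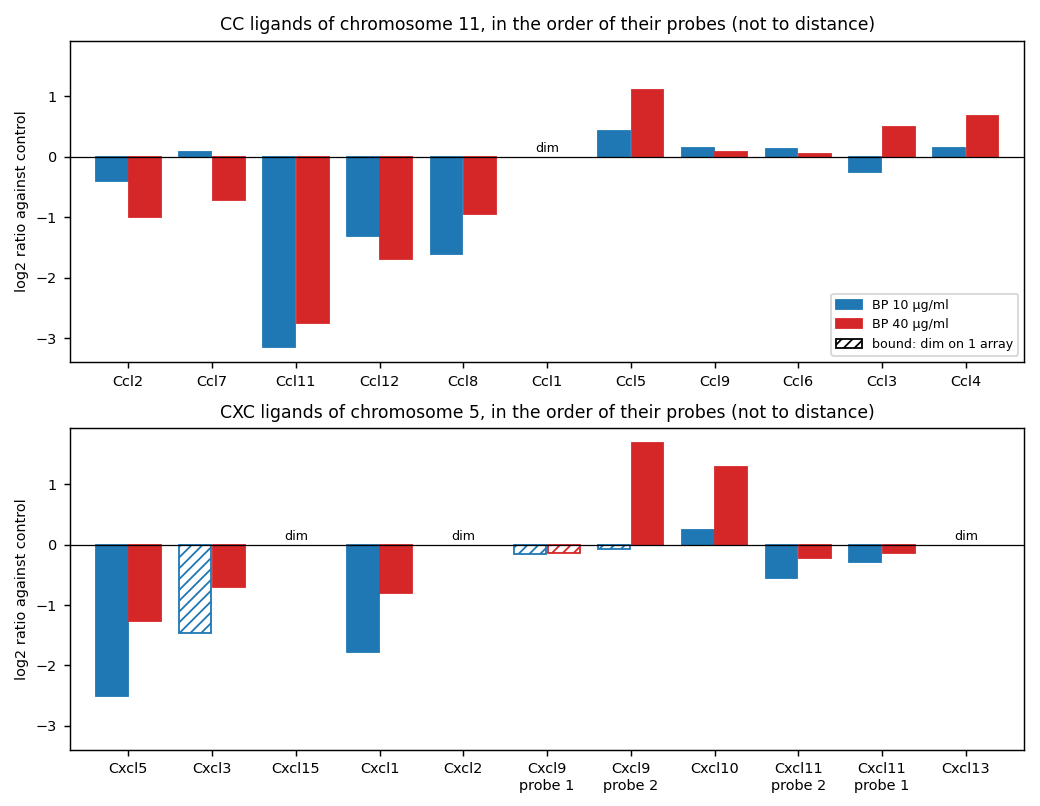
Log2 ratio against the control of the CC ligands of chromosome 11 (top) and the CXC ligands of chromosome 5 (bottom) at BP10 and BP40, in the order of their probes along the chromosome and not to distance, with hatched bars for bounds and "dim" where no array was well above background. Ccl11 (-3.15 and -2.74) stands between Ccl7 (0.09 and -0.71) and Ccl12 (-1.31 and -1.68), and Ccl5, Ccl9, Ccl6, Ccl3 and Ccl4 form the right-hand group.

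These genes lie in clusters, and neighbours differed. On chromosome 11 the probes ran in the order Ccl2, Ccl7, Ccl11, Ccl12, Ccl8 and Ccl1, followed farther on by Ccl5, Ccl9, Ccl6, Ccl3 and Ccl4. In the stretch from Ccl2 to Ccl8, the ratios at BP10 ran -0.39, 0.09, -3.15, -1.31 and -1.60, so the call began at Ccl11. At BP40 they ran -0.996, -0.71, -2.74, -1.68 and -0.94, all below 0. In the stretch from Ccl5 to Ccl4 the BP40 ratios were 1.12, 0.09, 0.05, 0.50 and 0.68, so that Ccl5 alone was called.

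The homeostatic CC ligands position lymphocytes and dendritic cells in lymphoid organs, thymus and skin. Ccl21a, which acts through Ccr7, read -1.43, -3.02 and -2.84 and was down-regulated at BP10 (-1.59) and BP40 (-1.41). Its copy Ccl21b, whose probe differs as printed above, read 4.60, 3.91 and 4.23, with ratios of -0.69 and -0.38. Cross-hybridization between the copies was not tested. Ccl19, the other ligand of Ccr7, had 3 probes that disagreed. Its probe A_55_P2127991 had ratios of -1.41 and -0.90, A_55_P2099742 had -0.81 and -1.02, and A_55_P2127995 had 0.22 and 0.35.

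Ccl25, the thymic ligand of Ccr9, also had 3 probes. Of these, A_55_P2027852 was up-regulated at BP40 (1.02), while A_51_P161265 was at 0.12 and A_66_P104618 at 0.43. The last is named Ccl25 in the files of 2 of the 3 arrays. The 3 probes of Ccl27a, a skin ligand of Ccr10, lay between -0.15 and -0.06 at BP10 and between 0.32 and 0.45 at BP40. Ccl28, another ligand of Ccr10, was above background on BP10 alone, where it read -2.83 against -6.66 on the control and -6.11 on BP40. Its bound was 2.69 against the control and -2.22 for BP40 against BP10. It was the 1 member up-regulated at BP10.

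The neutrophil-attracting CXC ligands act on Cxcr2. Cxcl5 (probe at chr5:91190490-91190549, mm9) had an intensity of 15580 ± 1558 on the control, 2199 ± 220 on BP10 and 4506 ± 451 on BP40. In normalized log2 signal it read 3.16, 0.65 and 1.89. The control was the highest array and BP10 the lowest. The log2 ratio was -2.51 at BP10 (5.69-fold lower) and -1.27 at BP40 (2.41-fold lower), and 1.24 for BP40 against BP10. It ranked 23 of 36650 measured probes from the lowest at BP10, and of 2756 measured probes of like brightness 2, this one included, had a ratio as low. Across the 5 other scalings and corrections tried, its ratio stayed between -2.52 and -2.45 at BP10 and between -1.34 and -1.26 at BP40.

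Cxcl1 showed the same order of arrays as Cxcl5, at -0.59 on the control, -2.37 on BP10 and -1.40 on BP40. It was down-regulated at BP10 (-1.78, 3.43-fold), and its ratio was -0.81 at BP40 and 0.97 for BP40 against BP10. Cxcl3 read -3.61 on the control and -4.30 on BP40 and was dim on BP10, with a bound of -1.46 at BP10 and a ratio of -0.70 at BP40. With quantile normalization (-0.92), the normexp correction (-0.65) or the median of like brightness subtracted (-0.87) the Cxcl3 bound was short of the threshold. On chromosome 5 these genes run in the order Cxcl5, Cxcl3, Cxcl15, Cxcl1 and Cxcl2, and Cxcl15 and Cxcl2 were dim on all arrays.

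The interferon-inducible CXC ligands Cxcl9, Cxcl10 and Cxcl11 attract activated T cells through Cxcr3. Cxcl10 read -1.75 on the control, -1.51 on BP10 and -0.47 on BP40. It was up-regulated at BP40 against the control (1.28, 2.43-fold) and against BP10 (1.04, 2.06-fold), and its ratio at BP10 was 0.24. Against BP10 the ratio of Cxcl10 was 0.89 with the normexp correction and 0.96 with the percentile taken over probes detected on every array, both short of the call. The Cxcl9 probe A_55_P1977038 read -4.99 on the control and -3.31 on BP40 and was dim on BP10, with a ratio of 1.68 at BP40 and a bound of 1.76 for BP40 against BP10. The other Cxcl9 probe, A_51_P461665, was above background on the control alone (-4.92), with bounds of -0.15 and -0.14, so the 2 probes of Cxcl9 disagreed. The Cxcl11 probes, with the shared bases given above, had ratios of -0.28 and -0.56 at BP10 and of -0.14 and -0.22 at BP40.

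The other CXC ligands included the niche factor Cxcl12, which acts on Cxcr4 and Cxcr7. Its 2 probes had ratios of -0.19 and -0.22 at BP10, and of -0.48 and -0.66 at BP40, so both probes read lower at BP40 and neither was called. Cxcl14, a ligand that is made by epithelia and fibroblasts, read 4.83 on the control, 3.19 on BP10 and 3.66 on BP40. It was down-regulated at BP10 (-1.64, 3.12-fold) and at BP40 (-1.16, 2.24-fold). Of 2756 measured probes of like brightness, 6 at BP10 and 11 at BP40 had a ratio as low, Cxcl14 included. Cxcl16, the ligand of Cxcr6, was near 0 at both doses (0.11 and 0.09). Cxcl17 was above background on the control alone (-3.83), with bounds of -1.23 and -1.22.

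Most receptor probes were dim or lay near the detection limit. No receptor named here was up-regulated against the control, and the called ones were all lower. Most calls over all gene probes were lower as well. At BP10, 9.67% of all gene probes were down-regulated and 2.71% up-regulated, and at BP40 8.51% and 2.45%. In other settings Ccr9 passed the threshold upward. This was so when the median ratio of probes of like brightness was subtracted (1.30 and 1.14) and with quantile normalization (1.30 and 1.20). Ccr10, which binds Ccl27a and Ccl28, was at -1.09 and -1.16, and Cxcr1, a receptor of neutrophils, at -1.03 and -1.07. Ccr7 was at -1.31 and -0.81, and the Ccr8 probe A_55_P2103097 at -1.15 and -0.90. Ccr6, the receptor of Ccl20, and Ccr4 were above background on the control alone, with bounds of -1.46 and -1.50 for Ccr6 and of -1.01 and -1.003 for Ccr4. Each of these 6 receptors lost at least 1 call under another scaling or correction.

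The receptors not called against the control included those of Cxcl12. Cxcr7, known today as Ackr3, which takes up Cxcl12, read -0.40 on the control, 0.18 on BP10 and -0.82 on BP40. Its ratios were 0.58 and -0.42, and -0.998 for BP40 against BP10, just short of the call. Cxcr4 was close to the limit on every array (-5.31, -5.35 and -4.89), with a ratio of 0.42 at BP40. The 2 probes of Cxcr6 had ratios of 0.08 and 0.15 at BP10 and of -0.56 and -0.59 at BP40. Ccr9 was at 0.87 and 0.73. Ccr2, Cxcr2 and the second Ccr8 probe were above background on the control alone, with bounds between -0.35 and -0.07, and Cxcr5 was too, with a bound of 0.00. Cxcr3 had a non-uniform control spot that was left out, and read -4.75 on BP10 and -4.10 on BP40.

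Counted over the family, 17 of the 62 member probes with a ratio were called at BP10 (27.4%), 1 up-regulated and 16 down-regulated, beside 12.4% of all 55259 gene probes, of which 2.71% were up-regulated and 9.67% down-regulated. At BP40, 17 of 62 were called (27.4%), 5 up-regulated and 12 down-regulated, beside 11.0% of 55414 gene probes, of which 2.45% were up-regulated and 8.51% down-regulated. For BP40 against BP10, 4 of 64 were called (6.25%), 3 up-regulated and 1 down-regulated, beside 3.73% of 55257 gene probes, of which 1.77% were up-regulated and 1.96% down-regulated. With the probe required to be well above background on both arrays it was 2 of 42, beside 3.48%. The up-regulated members for BP40 against BP10 were Cxcl5, Cxcl10 and Cxcl9, and the down-regulated one was Ccl28. The median log2 ratio of the members was -0.27, -0.40 and 0.11 in these 3 comparisons, beside -0.23, -0.14 and 0.04 for all gene probes. These medians take measured differences without bounds, dim probes included. Over probes well above background on both arrays they were -0.24, -0.485 and 0.16 for the members. For all gene probes they were then -0.15, -0.07 and 0.07. Bounds made up 5, 4 and 2 of the calls.

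The split of the called members into up and down depended on the scaling, at BP40 more than at BP10, where most called members were lower in each setting tried. With quantile normalization, which brings the median ratio of all probes to -0.01 at BP10 and 0.01 at BP40, members split 2 up and 9 down at BP10 and 7 up and 7 down at BP40. All probes then split 3241 up and 2250 down at BP10 and 3094 and 1929 at BP40, against 1496 and 5342, and 1355 and 4713, with the 75th percentile. With the median ratio of probes of like brightness subtracted, members split 3 and 9, and 7 and 6, beside 4664 and 1837, and 3348 and 1725, of all probes. With the normexp correction members split 1 and 9, and 3 and 5, beside 750 and 1229, and 711 and 719, of all probes. Of the calls, 9 of 17 at BP10, 7 of 17 at BP40 and 3 of 4 for BP40 against BP10 were kept under all 5 other scalings and corrections. How many of all called gene probes were kept in this way was not counted, so these shares have no baseline. At BP10 the kept members were Ccl11, Ccl12, Ccl8, Ccl19 (A_55_P2127991), Ccl21a, Cxcl1, Cxcl5, Cxcl14 and Ccl28. At BP40 they were Ccl11, Ccl12, Cxcl5, Cxcl14, Ccl20, Cxcl9 (A_55_P1977038) and Cxcl10.

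Among genes with several probes well above background on all 3 arrays, the SD of the log2 ratio between probes was taken per gene. Its median was 0.12 at BP10 and 0.096 at BP40 for the 6 member genes. For the 6856 genes of the whole array it was 0.33 and 0.26. The 2 Cxcr6 probes overlap in position, as do A_55_P2068723 and A_55_P2068734 of Ccl27a. The member median thus rests in part on probes that read the same bases, and the Cxcl11 probes are uncertain as given above. Ccl11, Cxcl5 and Cxcl14 had 1 probe each, so no such spread was measured for them. The probes of Ccl19 lay farther apart than the member median, as given above. Those of Ccl25 did too, with -0.53, 0.35 and 0.34 at BP10.

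Chemokine genes that the naming rule leaves out were described from a list of 12. At BP10, 4 were down-regulated and none up-regulated: the platelet chemokine Pf4 (-1.64), Ppbp (-1.42), the scavenging receptor Darc (-1.33) and Ccrl2 (-1.26), which presents chemerin. At BP40, Pf4 (-1.25), Darc (-1.57) and the scavenging receptor Ccrl1 (-1.36) were down-regulated, and Xcl1 had a bound of 1.13. Cx3cl1, fractalkine, was above background on all arrays with ratios of -0.20 and -0.22. Beside these counts, 12.9% of all 35321 gene names with a ratio were called at BP10 and 11.5% at BP40, with 1 probe for each.

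The genes that carry the signal of the receptors stood mostly below the threshold. Of 20 genes for G proteins, arrestins, receptor kinases and their effectors, 1 was down-regulated at BP10, Dock2 (-1.23), a Rac activator of leukocytes. At BP40 it was 2, Dock2 (-1.16) and the phospholipase Plcb2 (-1.01), and none was up-regulated at either dose. The median ratio of the list was -0.07 and -0.02, taken on measured differences without bounds and with dim genes included. Over all gene names the median was -0.23 and -0.11, and 12.9% and 11.5% of them were called. Gnai2, the main inhibitory G protein of the receptors, was at -0.12 and -0.48.

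The cytokines and factors that induce chemokines were a list of 23. At BP10, 2 were down-regulated, Il17a with a bound of -1.95, above background on the control alone, and Socs3 (-1.10), a feedback inhibitor of Stat3 signalling. At BP40 it was Il17a alone, with a bound of -1.94. The median ratio of this list was -0.37 and -0.18, taken on measured differences without bounds and with dim genes included. The value at BP10 is that of Il1a, which was dim, so it rests on background. Over all gene names the median was -0.23 and -0.11, and 12.9% and 11.5% of them were called. Of the Il4 and Il13 pathway that induces Ccl11, the receptor genes and Stat6 were above background on all arrays and not called: Il4ra was at -0.29 and -0.41, Il13ra1 at -0.39 and -0.45, and the transcription factor Stat6 at 0.07 and 0.05. The same held for the NF-kappaB genes, with Nfkb1 at -0.52 and -0.63, Rela at -0.01 and 0.32 and the inhibitor Nfkbia at 0.46 and 0.38. Il6 was at -0.63 and -0.39, and Il1a, Il1b, Ifng and Il13 were dim on all arrays. Il4 was above background on the control alone, with bounds of -0.58 and -0.21.

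Promoters were read from RefSeq's table (build GRCm38.p6, 250 bases before to 50 after the start), which held 41 promoters of 37 member genes. Each was searched on both strands for 4 motifs, the NF-kappaB site (kappaB), AP-1 (TGANTCA), the interferon element core GAAANNGAAA and the Stat6 site TTCNNNNGAA, with overlapping matches of a motif counted as 1 site. The kappaB motif was in 11 of 41, beside 8.46% of all 32851 promoters, AP-1 in 7 beside 7.81%, the interferon core in 3 beside 3.44% and the Stat6 motif in 1, that of Ccl17, beside 6.95%. The promoters of Ccl11, Ccl2, Ccl7 and Cxcl5 were not searched here, since the table used held none of them. The promoters of Cxcl1 and Cxcl3, low on BP10, and of Cxcl10, high on BP40, are shown with these motifs in capitals.

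Cxcl1 promoter, chr5:90890995-90891294, plus strand: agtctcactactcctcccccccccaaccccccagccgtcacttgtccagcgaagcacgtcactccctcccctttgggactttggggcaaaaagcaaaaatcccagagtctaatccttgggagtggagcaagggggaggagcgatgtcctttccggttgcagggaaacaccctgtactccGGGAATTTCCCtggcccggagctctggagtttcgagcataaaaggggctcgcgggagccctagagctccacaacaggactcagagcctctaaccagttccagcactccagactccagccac

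Cxcl3 promoter, chr5:90785851-90786150, plus strand: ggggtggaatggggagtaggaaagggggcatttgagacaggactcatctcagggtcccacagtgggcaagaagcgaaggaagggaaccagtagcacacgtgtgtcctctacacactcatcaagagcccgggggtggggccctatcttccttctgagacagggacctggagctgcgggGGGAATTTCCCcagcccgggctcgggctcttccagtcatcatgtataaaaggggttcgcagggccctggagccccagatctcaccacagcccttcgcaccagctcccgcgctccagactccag

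Cxcl10 promoter, chr5:92348840-92349139, minus strand: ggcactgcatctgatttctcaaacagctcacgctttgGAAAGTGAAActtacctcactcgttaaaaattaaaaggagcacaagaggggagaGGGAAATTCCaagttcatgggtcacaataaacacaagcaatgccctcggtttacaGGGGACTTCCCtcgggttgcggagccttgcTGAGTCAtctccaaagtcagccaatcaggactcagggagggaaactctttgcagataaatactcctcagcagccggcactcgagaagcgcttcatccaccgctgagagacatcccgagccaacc

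Cxcl1 and Cxcl3 held the same kappaB match, beginning at -71 and -73 from the start, and no other motif of the 4. Cxcl2, dim on all arrays, held 1 at -97. Cxcl10 held the interferon core at -213, kappaB matches at -159 and -104 and an AP-1 match at -74. Of the genes kept at BP10 in the same direction as Cxcl1, Cxcl14 and Ccl19 each held the interferon core, at -172 and -208. Ccl8, Ccl12 and Ccl21a, kept in that direction too, held none of the 4 motifs. A kappaB match was also present in Ccl20, kept as higher at BP40, at -80. Ccl9, near 0 in both comparisons with the control, held a kappaB match at -35 and an AP-1 match at -53. A match is a description of letters in the window, and binding was not measured.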

How the data were processed

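MEF total RNA (control, BP10 and BP40) was measured on 1 single-colour Agilent mouse array per condition. The authors deposited the scanner output of Feature Extraction 10.5.1.1, in which each spot has an intensity corrected for background and not scaled between arrays, and a series table with the same intensity. The columns read were mapped to samples by their labels, and 0 were left unmapped.

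Control spots and outlier-flagged spots were left out, log2 of the intensity was taken, the 75th percentile of each array was subtracted, and spots of a probe were averaged. A probe was well above background if all its kept spots were. For gene lists, 1 probe a gene was used, chosen by the number of arrays where it was above background and then by brightness. Genes were named if they were Ccl11 or Ccr3, had a called probe, or had a probe above background on all arrays. The members named beside these were chosen after their values were seen. The values of 1 receptor gene are not reported here, and counts over the family include it. The members and lists were chosen with earlier results of these data known. Python 3.11.15, numpy 2.4.6, pandas 2.3.3 and R 4.3.3 with limma 3.58.1 (quantile, and normexp with an offset of 50) were used. The calling script was tested on simulated data. Alternatives were folds of 1.5 and 3, filters on dim probes, 5 scalings or corrections, the series table, and the measured ratio in place of a bound, the last chosen after seeing the data. The number of arrays limits the precision.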

Additional observations from a re-analysis of the deposited data

How the results depend on the processing

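No paired analysis was possible because there was 1 array a condition, with no replicate numbers. The number of members called was 17 at BP10, 17 at BP40 and 4 for BP40 against BP10. At a fold of 1.5 it was 30 at BP40 and 21 for BP40 against BP10, and at a fold of 3 it was 7, 3 and 2. Of all gene probes, 3727 were up-regulated and 10617 down-regulated at BP40 at a fold of 1.5. For BP40 against BP10 it was 3965 and 3377. At a fold of 3 it was 447 and 985 at BP10, 375 and 848 at BP40, and 277 and 359 for BP40 against BP10. With a filter on both arrays, 2 members were called for BP40 against BP10, and with no filter on dim probes 11. All gene probes split 609 up and 624 down with that filter, and 3450 up and 2721 down with none. Quantile normalization gave 11 calls at BP10, and Ccl11 ratios of -2.80 and -2.44. The normexp correction gave 10 calls at BP10 and 8 at BP40, and Ccl11 ratios of -1.92 and -1.57. Subtracting the median of probes of like brightness gave Ccl11 ratios of -2.72 and -2.33, and turned the bound of Ccr4 at BP10 to 0.15. The cause of these differences was not tested. The direction of Ccl11 against the control was the same in each of these settings. Among the genes reported here, the ratio lost its call under at least 1 scaling or correction for Ccr10, Ccr4, Ccr6, Ccr7, Ccr8, Cxcl17, Cxcl3 and Cxcr1 at BP10, and for Ccl19, Ccl21a, Ccl25, Ccl5, Ccr10, Ccr4, Ccr6, Cxcl17 and Cxcr1 at BP40. The lowest and highest values of Ccr10 were -1.11 and -0.44 at BP10, and those of Ccr6 -1.47 and -0.55. Ccl2 at BP40 passed the threshold under other settings, at -1.04 with the percentile taken over probes detected on every array, -1.03 with normexp, -1.02 with quantile normalization and -1.06 with the median of like brightness subtracted, and Ccr9 passed it at 1.30 and 1.14 with the last and at 1.30 and 1.20 with quantile normalization. For a probe dim on 1 of the arrays compared, signal over background allows a bound and no size of the difference.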
